A study of Mus musculus with 10 samples.

Results

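Enzymes that write and erase histone and DNA modifications were followed in RNA from hand-picked cells of the mouse cochlea. The members were all genes named by symbol as Hdac, Sirt1 to Sirt7, Kdm, Dnmt1 or Dnmt3 or Tet1 to Tet3 genes. Setd, Ezh1 or Ezh2, Suv, Prdm and Kat genes were also members. This symbol rule uses no measured value, but the members were chosen with earlier results of these data known. The rule found 75 members in 10 families among 34590 listed genes. Of these, 68 had enough reads to be tested, among 16891 tested genes in all.

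The study asked how far supporting cells (SCs) that are made to express the hair cell factor Atoh1 come to resemble native hair cells. Each of 5 cell types had 2 libraries, named here by the replicate numbers in the sample titles. SCs (replicates 12 and 11, P27 and P26) came from Fgfr3iCreER+ mice with a Cre-dependent tdTomato reporter at Rosa26, and converted hair cells (cHCs, replicates 13 and 16, both P33) came from such mice that also carried the Atoh1-HA and alpha9 AChR-EGFP transgenes. In both, tamoxifen was given near the end of the second postnatal week, and the Fgfr3iCreER driver acts mainly in Deiters' and pillar cells. Outer hair cells (OHCs) at P7 (replicates 15 and 14) are labelled as prestin-YFP knock-in heterozygotes, while the study's own sample list gives a tamoxifen-induced prestin Cre line with tdTomato for them. Mature OHCs (called P22 OHCs; 1 library with m21 and 1 with f22 in its title, called m21 and f22 here) were prestin-YFP heterozygotes, and inner hair cells (IHCs, m74 and m75 in the titles) came from Pval-Cre+ mice with the tdTomato reporter, a Cre that also labels OHCs weakly. The study calls the 2 libraries of a cell type biological duplicates. The labels do not say whether a library was 1 animal or a pool, and p-values measure the spread between these libraries.

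Histone acetyltransferases add acetyl groups that loosen chromatin, and the histone deacetylases and sirtuins take them off. Histone methyltransferases mark active or silent genes depending on the residue, and the Kdm demethylases reverse this. The Dnmt enzymes methylate cytosine next to guanine (CpG) and the Tet dioxygenases begin its removal. In the inner ear these enzymes have been discussed as brakes on the ability of supporting cells to take on a hair cell fate with age.

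Counted reads ranged from 15016129 to 40518766 per library, where 3 reads correspond to 0.0740 to 0.200 CPM before scaling (counts set to a common library total, scaled by TMM factors in all values below unless stated). After scaling, 3 reads are 0.265 CPM in the P22 OHC library m21. Such a limit covers counting error only. The files of 4 libraries were attached to records of other samples and were assigned here by their match to the study's own table of levels, and with the files as attached 0 members passed in any edgeR test. The P22 OHC library m21 stood apart, with a TMM factor of 0.583 against 0.930 to 1.20 in the other 9 libraries and 41.3% of its reads in 10 genes. The summed level of 12 hair cell markers ran from 363 to 364 CPM in SCs, while the 4 hair cell types had 5302 to 9431 CPM. The summed level of 10 SC markers was 1608 to 2101 CPM in SCs and 956 to 1259 CPM in cHCs. It was 110 to 404 CPM in P7 OHCs, 10.4 to 11.2 CPM in P22 OHCs and 768 to 925 CPM in IHCs. These markers did not move together. Fgfr3 (458 and 431 CPM in cHCs, 167 and 312 in SCs), Prox1 (247 and 293, 14.7 and 53.7) and Lfng were higher on average in cHCs than in SCs. Sox2, Sox9, Sox10, Hes1, Gjb2, Jag1 and Cdkn1b were lower on average in cHCs. In IHCs, Gjb2 alone stood at 611 and 468 CPM. In a bulk sample, fewer cells of a type and less RNA per cell cannot be told apart. The SC, cHC and P7 OHC libraries carry numbers from 11 to 16 in their titles and the P22 OHC and IHC libraries numbers from a separate, higher range, and cell type and numbering range cannot be told apart in comparisons across them.

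Members were a small part of the RNA, from 0.308% to 0.488% of counted reads. Reads were present in all 10 libraries for 55 members. The 7 members too low to test were Dnmt3l, Prdm1, Prdm6 and Prdm13, which had 0 reads in every library, Prdm14 and Prdm8, which had at most 1 and 2 reads, and the pseudogene Kat2b-ps, with at most 17. Per kilobase of exon, the highest mean level over all libraries in each family was that of Setd5 (37.0 CPM per kb), Sirt2 (34.4), Kdm3b (27.6), Hdac3 (22.4), Kat2b (14.1), Prdm4 (13.1), Dnmt1 (10.9), Ezh1 (9.66), Tet3 (9.48) and Suv420h1 (7.54). By the mean of 2 libraries, the highest member per kilobase was Sirt2, a mainly cytoplasmic deacetylase, in SCs (46.7 CPM per kb), cHCs (28.5) and IHCs (43.4). The next values were close in cHCs (Setd5, 28.1) and IHCs (Setd5, 40.8, and Setd8, 40.4). Single libraries of SCs, cHCs and IHCs did not all keep this order, and Sirt2 was highest in neither IHC library. In OHCs the highest by mean was Setd5, a SET domain protein, at 33.8 CPM per kb at P7 and 53.3 at P22. The P22 mean rests mainly on m21, with 1077 CPM of Setd5 there and 252 CPM in f22. In f22 alone, Setd5 was not the highest member per kilobase.

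**Figure D1:**
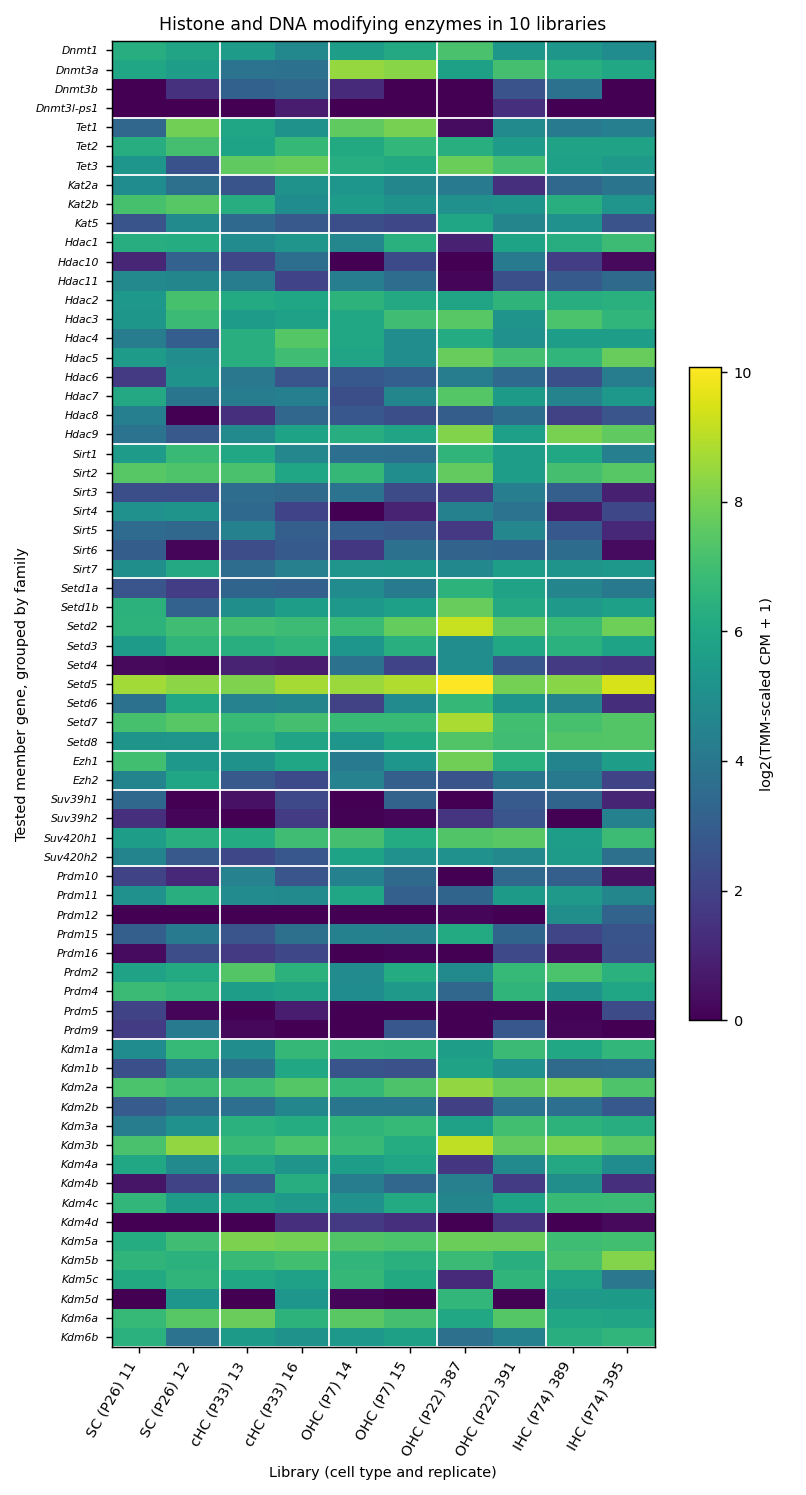
Level of each of the 68 tested members (rows, grouped by family) in each of the 10 libraries (columns, grouped by cell type), as log2(TMM-scaled CPM + 1) on the colour scale. Setd5 is the brightest row in most columns, and Prdm12 has colour only in the 2 IHC columns.

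In a joint edgeR quasi-likelihood test among the 5 cell types, 3 of 68 members passed an adjusted p of 0.05, which is 4.41% of members beside 7.81% of all tested genes. These were Dnmt3a (adjusted p = 0.0085), Hdac9 (adjusted p = 0.0424) and Prdm12 (adjusted p = 0.0433). Setd1a passed in 1 comparison of 2 cell types. At an unadjusted p under 0.05 the joint test held 10 members, 14.7% beside 25.6% of all tested genes, the other 7 being Setd1a, Tet3, Setd8, Hdac5, Setd4, Hdac4 and Kat2b.

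The start regions of the 2 members called both jointly and between a pair of cell types are shown because one of them encodes a CpG methyltransferase and they differ widely in CpG content. They are 300 bases each, 250 before and 50 after the most upstream start of the gene, from RefSeq on GRCm38.p6, with each CpG in capitals. Gene counts do not say which start was in use. Reads were counted on mm9, another build, and whether each window lies at a start of the counted gene model was not tested. The windows are chr12:3806730-3807029 (plus strand) for Dnmt3a and chr12:34917046-34917345 (minus strand) for Hdac9.
Dnmt3a: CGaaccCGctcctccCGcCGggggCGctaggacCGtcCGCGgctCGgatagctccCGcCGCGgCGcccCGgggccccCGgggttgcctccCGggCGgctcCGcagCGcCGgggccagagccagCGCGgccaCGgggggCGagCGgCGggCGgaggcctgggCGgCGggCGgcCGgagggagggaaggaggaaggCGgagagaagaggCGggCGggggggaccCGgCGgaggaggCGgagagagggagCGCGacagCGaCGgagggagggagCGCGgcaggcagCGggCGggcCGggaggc
Hdac9: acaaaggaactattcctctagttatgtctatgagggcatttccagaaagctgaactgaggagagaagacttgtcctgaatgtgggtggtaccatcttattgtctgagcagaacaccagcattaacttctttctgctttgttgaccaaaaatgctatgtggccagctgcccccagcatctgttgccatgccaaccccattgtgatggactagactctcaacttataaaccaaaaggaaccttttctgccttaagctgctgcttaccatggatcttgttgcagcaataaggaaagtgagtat
The Dnmt3a region holds 46 CpGs, a number reached by 1.65% of 32851 RefSeq promoter windows of this length, whose median is 7. The 2 further Dnmt3a entries hold 47 and 18. The Hdac9 region holds 0 CpGs, as do 5.43% of windows, and the further Hdac9 entry holds 3. The E-box CANNTG, the letters bound by basic helix-loop-helix factors such as Atoh1, reads the same on both strands and occurs 0 times in this Dnmt3a window and 2 times in this Hdac9 window, and 72.3% of all windows hold at least 1.

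Among the DNA methyltransferases, Dnmt3a passed, and it was higher in OHCs of either age than in cHCs. Dnmt3a, which sets new methylation on unmethylated DNA (ENSMUSG00000020661, mm9 chr12:3806007-3914443, plus strand), stood at 47.8 and 58.9 CPM in SCs, 13.4 and 12.7 in cHCs, 311 and 352 in P7 OHCs, 52.3 and 137 in P22 OHCs and 81.4 and 65.5 in IHCs, with libraries in the order given above here and below. Both P7 OHC libraries lay above the other 8 and both cHC libraries below the other 8. Dnmt3a was higher in P7 OHCs than in cHCs by 4.67 on the log2 scale (SE 0.68, edgeR adjusted p = 0.0223). Dnmt3a was higher in P22 OHCs than in cHCs by 2.86 on the log2 scale (SE 0.63, edgeR adjusted p = 0.0327). The comparison of cHCs with SCs gave -2.03 (SE 0.61, edgeR adjusted p = 0.151), and that of P22 with P7 OHCs gave -1.81 (SE 0.60, edgeR adjusted p = 0.242), so neither passed.

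The joint call on Dnmt3a was kept whichever single library was left out. The pairwise calls rest on few libraries. The P7 OHC call was lost without cHC replicate 13 (edgeR adjusted p = 0.0779), cHC replicate 16 (0.0958), P7 OHC replicate 15 (0.0516) or P7 OHC replicate 14 (0.0907), with the log2 difference between 4.44 and 4.76 in these fits. The P22 OHC call was lost without cHC replicate 13 (edgeR adjusted p = 0.173) or 16 (0.160), P7 OHC replicate 15 (0.0564) or 14 (0.0723), or the P22 OHC library f22 (0.0930). It was also lost in limma-voom (adjusted p = 0.0734), with an edgeR term for the form of the sample title (0.0843) and in edgeR on the compared cell types alone (0.156).

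Dnmt1, which copies methylation at DNA replication, ranged from 25.2 to 144 CPM, and the 2 P22 OHC libraries, at 144 and 39.0 CPM, spanned nearly that range. Dnmt3b, the other de novo enzyme, reached 12.5 CPM at most, with 7.66 and 8.94 CPM in cHCs and 0 reads in 3 libraries. The pseudogene Dnmt3l-ps1 stayed at or below 1.64 CPM.

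None of the 3 Tet dioxygenases passed in edgeR on all libraries with the filter on low counts, and their levels were arranged differently. Without that filter, Tet1 and Tet3 were called jointly. Tet3 stood at 4.75 and 37.9 CPM in SCs, 195 and 211 in cHCs, 68.6 and 77.4 in P7 OHCs, 225 and 134 in P22 OHCs and 53.9 and 42.4 in IHCs. Both SC libraries lay below the other 8, and cHC and P22 OHC libraries overlapped at the top. The comparison of cHCs with SCs gave 3.25 (SE 0.87, edgeR adjusted p = 0.106) and that of P22 OHCs with SCs gave 3.07 (SE 0.86, edgeR adjusted p = 0.0531). The second was called under 13 of 19 alternatives, and 7 of these 13 left out 1 library. The second passed in DESeq2 (adjusted p = 0.00197) and limma-voom (adjusted p = 0.0366), and did not in edgeR without SC replicate 12 (adjusted p = 0.134) or the P22 OHC library m21 (0.179). The first of these differences passed at an edgeR adjusted p of 0.0129 without SC replicate 11, the SC library with the larger value.

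Tet1 split the SC duplicates, with 241 and 8.92 CPM, and stood at 62.1 and 35.1 CPM in cHCs, 257 and 197 in P7 OHCs, 0.265 and 27.2 in P22 OHCs and 16.2 and 19.2 in IHCs. Both P7 OHC libraries were above every cHC, P22 OHC and IHC library, and 1 SC library was as high as they were. The comparison of P22 with P7 OHCs gave -4.04 (SE 1.68, edgeR adjusted p = 0.329). Tet2 varied least of these 3, from 46.7 to 138 CPM.

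**Figure D2:**
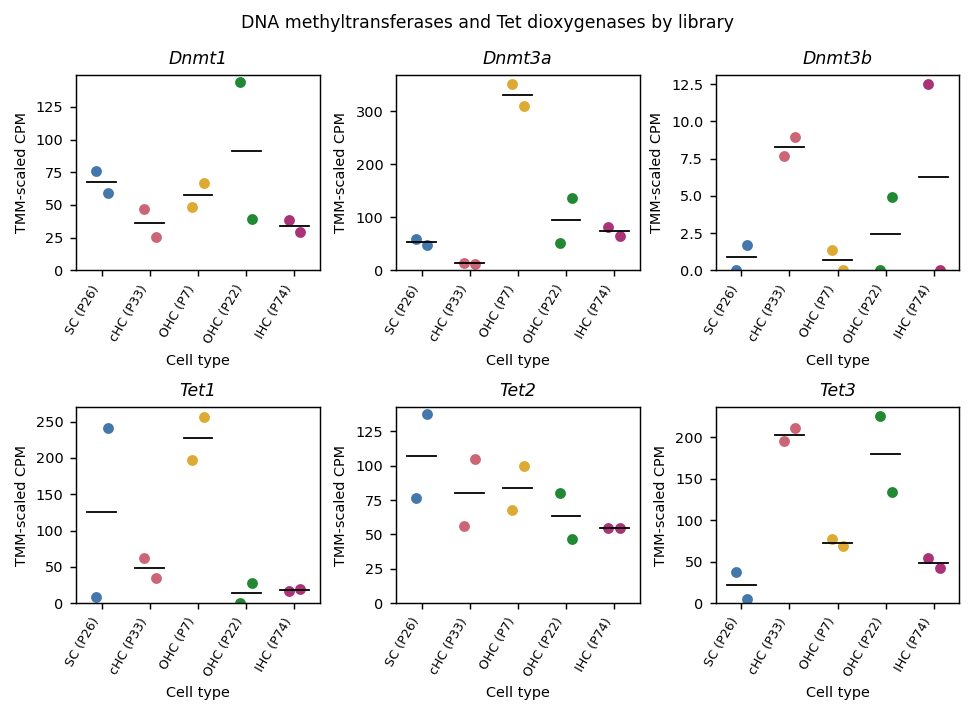
TMM-scaled CPM (vertical axis, from 0) of Dnmt1, Dnmt3a, Dnmt3b, Tet1, Tet2 and Tet3 in the 5 cell types, with 1 point for each library and a bar at the mean of 2. Dnmt3a points are lowest in cHCs (13.4 and 12.7 CPM) and highest in P7 OHCs (311 and 352 CPM), and the 2 Tet1 points of SCs lie far apart.

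Of the 3 tested Kat acetyltransferases, Kat2b (PCAF) was the one with a joint unadjusted p under 0.05 (edgeR adjusted p = 0.187). Kat2b stood at 175 and 139 CPM in SCs, 75.6 and 29.1 in cHCs, 35.2 and 46.3 in P7 OHCs, 33.2 and 35.7 in P22 OHCs and 78.8 and 37.2 in IHCs. Both SC libraries were above all hair cell libraries. The comparison of cHCs with SCs gave -1.58 (SE 0.71, edgeR adjusted p = 0.332). Kat2a (GCN5) ranged from 1.60 to 37.7 CPM, and Kat5 (Tip60) from 3.56 to 59.5 CPM with both P7 OHC libraries lowest. Of the Kat5 exon length, 18.0% overlaps Rnaseh2c on the other strand, and the strand setting of the counting is not given in the sources used here.

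Among the histone deacetylases, Hdac9 passed, and it was higher in P22 OHCs than in SCs. Hdac9, a class IIa deacetylase that binds MEF2 factors (ENSMUSG00000004698, mm9 chr12:34732451-35213754, minus strand), stood at 6.0 and 13.4 CPM in SCs, 27.6 and 56.6 in cHCs, 58.2 and 76.8 in P7 OHCs, 283 and 50.7 in P22 OHCs and 262 and 196 in IHCs. Both SC libraries were below the other 8, and the P22 OHC library f22 lay among the cHC and P7 OHC libraries while m21 lay with the IHCs. Hdac9 was higher in P22 OHCs than in SCs by 4.10 on the log2 scale (SE 0.90, edgeR adjusted p = 0.0187). In cHCs against SCs the difference was 2.11 (SE 0.83, edgeR adjusted p = 0.279). The P22 OHC call was lost without SC replicate 12 (log2 difference 3.63, edgeR adjusted p = 0.0869) and without the P22 OHC library m21 (2.31, edgeR adjusted p = 0.138), and the joint call without SC replicate 12 (edgeR adjusted p = 0.0803) or the IHC library m74 (0.0579). In limma-voom neither passed (adjusted p = 0.112 and 0.114), and the joint edgeR call was lost with the title-form term (0.110), the other on the compared cell types alone (0.0656).

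The related class IIa genes Hdac4 and Hdac5 had joint edgeR adjusted p-values of 0.166 and 0.118. Hdac4 stood at 7.02 and 18.1 CPM in SCs, 78.3 and 170 in cHCs, 29.5 and 65.6 in P7 OHCs, 73.2 and 33 in P22 OHCs and 49.0 and 49.2 in IHCs. Both cHC libraries were above the other 8 and both SC libraries below them. The comparison of cHCs with SCs gave 3.31 (SE 0.88, edgeR adjusted p = 0.103). Hdac5 stood at 29.4 and 45.3 CPM in SCs, 81.8 and 125 in cHCs, 29.4 and 57.8 in P7 OHCs, 210 and 134 in P22 OHCs and 99.0 and 211 in IHCs. SC and P7 OHC libraries overlapped, and all cHC, P22 OHC and IHC libraries were above both. Hdac7, the remaining gene of the class, ranged from 4.34 to 170 CPM.

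The class I deacetylases, which include the catalytic subunits of the large corepressor complexes, did not pass in edgeR on all libraries. Hdac1 was at 0.882 CPM in the P22 OHC library m21 and between 24.2 and 119 CPM in the other 9, and it was called jointly without the library f22, which leaves m21 as the only P22 OHC library. Hdac2 ranged from 40.6 to 139 CPM, Hdac3 from 36.3 to 173 CPM and Hdac8 from 0 to 19.1 CPM. Hdac6, a tubulin deacetylase, ranged from 2.26 to 34.1 CPM. Hdac11 stood at 23.7 and 25.7 CPM in SCs, above every hair cell library.

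No sirtuin passed in edgeR on all libraries, and the smallest joint edgeR adjusted p in the family was 0.235, that of Sirt4, which DESeq2 and limma-voom called jointly. Sirt4, a mitochondrial enzyme, stood at 35.9 and 33.6 CPM in SCs and between 0 and 20.8 CPM in the hair cells, so the SC libraries did not overlap with the rest. Sirt1, a nuclear deacetylase, stood at 11.4 and 11.9 CPM in P7 OHCs and between 19.2 and 113 CPM in the other 8 libraries. The comparison of P22 with P7 OHCs for Sirt1 gave 2.63 (SE 0.93, edgeR adjusted p = 0.263). Sirt2 ranged from 29.4 to 199 CPM, and Sirt3, the main mitochondrial deacetylase, from 0.825 to 19.0 CPM.

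Setd1a is the catalytic subunit of an H3K4 methyltransferase complex (ENSMUSG00000042308, mm9 chr7:134920184-134943636, plus strand). Among the members, it was the one histone methyltransferase that edgeR called between a pair of cell types. Other histone methyltransferases, outside the members, are given with the partners below. It stood at 2.53 and 5.31 CPM in SCs, 8.59 and 7.62 in cHCs, 16.7 and 28.1 in P7 OHCs, 91.0 and 55.5 in P22 OHCs and 23.3 and 15.7 in IHCs. Both P22 OHC libraries were above the other 8, and SCs, cHCs and P7 OHCs did not overlap with each other. Setd1a was higher in P22 OHCs than in SCs by 4.22 on the log2 scale (SE 1.06, edgeR adjusted p = 0.0333), while the joint test gave an edgeR adjusted p of 0.0839.

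Of the annotated Setd1a exon length, 51.8% is shared with Hsd3b7 on the same strand. Hsd3b7, a bile acid enzyme, stood at 30.1 and 11.1 CPM in SCs, 16.9 and 0.483 in cHCs, 22.5 and 30.3 in P7 OHCs, 4.67 and 10.7 in P22 OHCs and 0.0674 and 0 in IHCs, and the part of shared reads in the Setd1a values was not tested. The Setd1a call was lost without SC replicate 12 (edgeR adjusted p = 0.171), SC replicate 11 (0.0922), P7 OHC replicate 15 (0.0521), P7 OHC replicate 14 (0.0587) or the P22 OHC library m21 (0.157), and in edgeR with the title-form term (0.0749) or on the compared cell types alone (0.0776).

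Prdm12, a PR domain factor known from sensory neurons (ENSMUSG00000079466, mm9 chr2:31495557-31511315, plus strand), was read almost only in IHCs. It had 0 reads in the SC, cHC and P7 OHC libraries, 1 and 0 reads in the P22 OHC libraries, and 910 and 238 reads in the IHC libraries, which is 30.7 and 8.18 CPM. The 2 IHC libraries were thus above the other 8. Neither tested comparison of IHCs, with cHCs or with P22 OHCs, passed in edgeR, and IHCs were not compared with SCs or P7 OHCs. The joint call was lost without the IHC library m74 and with the title-form term (edgeR adjusted p = 0.117). The antisense gene Gm13425, which shares 8.09% of the Prdm12 exon length, stayed at or below 0.0344 CPM. The sum of 6 neuronal markers was 579 to 834 CPM in IHCs and 285 to 396 CPM in P22 OHCs. It was 420 to 539 CPM in P7 OHCs, 192 to 479 CPM in cHCs and 0.797 to 2.18 CPM in SCs. Of these markers, Nefh (80.7 and 72.9 CPM in IHCs) and Nefl (115 and 358 CPM) also had both IHC libraries above the other 8. Nefm, Snap25 and Tubb3 did not, and Prph was at 0 in all 10 libraries. The part of neuronal RNA in the Prdm12 reads was not tested.

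**Figure D3:**
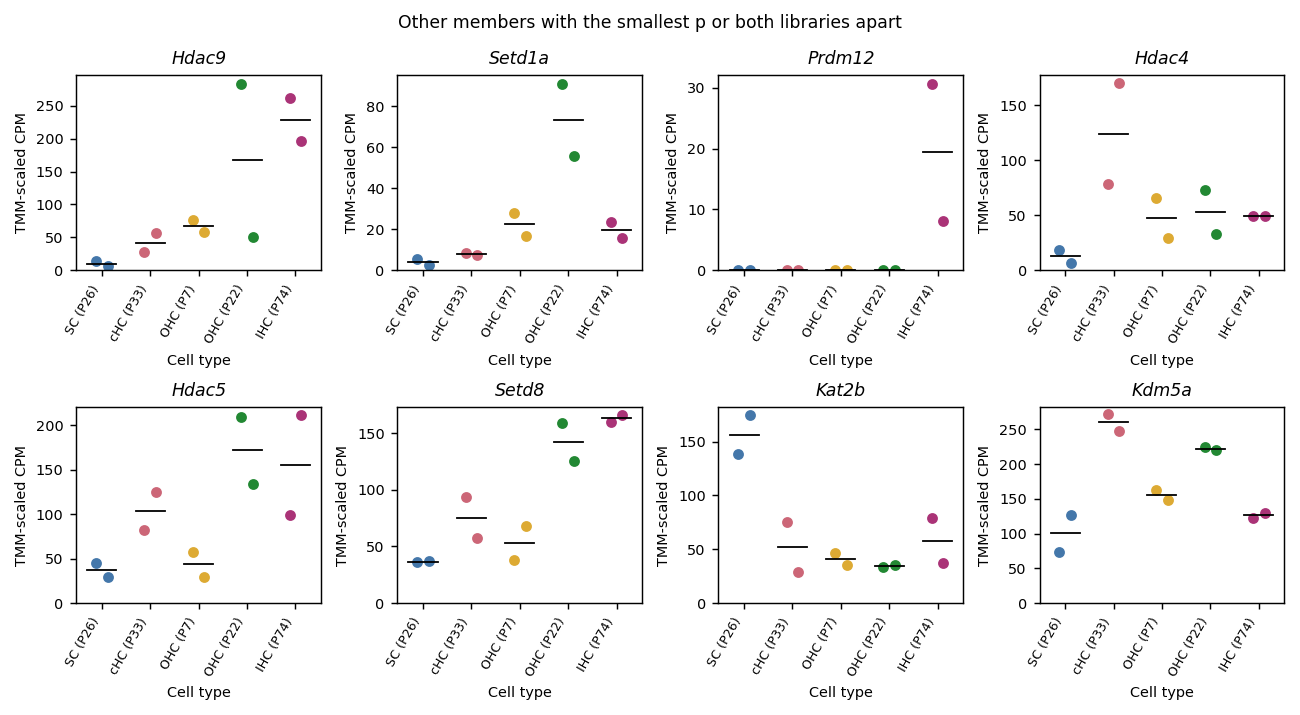
TMM-scaled CPM (vertical axis, from 0) of Hdac9, Setd1a, Prdm12, Hdac4, Hdac5, Setd8, Kat2b and Kdm5a in the 5 cell types, with 1 point for each library and a bar at the mean of 2. The Prdm12 points leave 0 only in IHCs, the Setd1a points are highest in P22 OHCs, and the Hdac4 points are highest in cHCs (78.3 and 170 CPM).

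Among the other SET domain genes, Setd8, which monomethylates H4K20, had a joint edgeR adjusted p of 0.113. It stood at 37.4 and 35.9 CPM in SCs, 93.7 and 57.4 in cHCs, 68.3 and 38.2 in P7 OHCs, 159 and 125 in P22 OHCs and 160 and 166 in IHCs. All P22 OHC and IHC libraries were above all others. Setd4 had a joint edgeR adjusted p of 0.152 and stood below 0.2 CPM in both SC libraries, between 0.711 and 12.8 CPM in cHCs, P7 OHCs and IHCs together with the P22 OHC library f22, and at 29.4 CPM in the P22 OHC library m21. Setd2, the enzyme for H3K36 trimethylation, ranged from 90.4 to 591 CPM, and the comparison of P22 OHCs with SCs gave 1.85 (SE 0.65, edgeR adjusted p = 0.107). Setd1b ranged from 7.91 to 212 CPM, Setd5 from 252 to 1077 CPM and Setd7 from 111 to 445 CPM, each with its highest value in the P22 OHC library m21.

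The mean level was highest in P22 OHCs for 22 of 68 members, 32.4% beside 23.5% of all tested genes, and for 7 of the 9 Setd genes. Summed Setd levels were 2739 and 924 CPM in the P22 OHC libraries and 762 to 1398 CPM in the other 8. Without the P22 OHC library m21, 3 of the 9 Setd genes (Setd1a, Setd1b and Setd2) had their highest mean in P22 OHCs. Without TMM scaling, 6 of 9 did, and 14 of 68 members in all beside 17.1% of tested genes.

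The Polycomb methyltransferases Ezh1 and Ezh2 place H3K27 methylation on silent genes, with Ezh2 the form known from dividing cells. Ezh2 stood at 60.1 and 22.5 CPM in SCs, 6.0 and 3.73 in cHCs, 7.18 and 21.3 in P7 OHCs, 4.94 and 14.2 in P22 OHCs and 15.8 and 3.20 in IHCs. Both SC libraries were above the other 8, the lower by a narrow margin. The comparison of cHCs with SCs gave -3.09 (SE 1.38, edgeR adjusted p = 0.326). Ezh1 ranged from 17.4 to 239 CPM, and the comparison of P22 with P7 OHCs gave 2.53 (SE 0.88, edgeR adjusted p = 0.254).

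Of the Suv genes, Suv420h1 and Suv420h2 add further methyl groups to H4K20 and Suv39h1 and Suv39h2 methylate H3K9. Suv420h1 stood at 159 and 180 CPM in P22 OHCs, above the other 8 libraries at 48.0 to 135 CPM. Suv420h2 was at 3.49 and 5.61 CPM in cHCs, below the other 8 at 6.09 to 57.0 CPM, and the comparison of P7 OHCs with cHCs gave 3.31 (SE 1.16, edgeR adjusted p = 0.346). Suv39h1 reached 9.30 CPM and Suv39h2 20.8 CPM at most.

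Of the Prdm genes other than Prdm12, none passed in edgeR on all libraries, and DESeq2 called Prdm15 in IHCs against P22 OHCs. Prdm4 stood at 98.5 and 117 CPM in SCs, above the other 8 at 9.08 to 94.9 CPM. Prdm2 (RIZ) ranged from 26.8 to 166 CPM. Prdm9, the meiotic H3K4 methyltransferase, reached 17.4 CPM in SC replicate 12, and Prdm16 reached 4.64 CPM.

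No histone demethylase of the Kdm family passed in edgeR on all libraries with the filter on low counts. The smallest joint edgeR adjusted p in this family of 16 was 0.215, that of Kdm3b. Kdm5d was called jointly and in 2 comparisons without that filter, and Kdm5c in P22 OHCs against SCs, cHCs and P7 OHCs without the P22 OHC library f22. Kdm5a, an H3K4 demethylase, stood at 127 and 74.1 CPM in SCs, 272 and 248 in cHCs, 148 and 163 in P7 OHCs, 224 and 220 in P22 OHCs and 123 and 130 in IHCs. Both cHC libraries were above the other 8. The comparison of cHCs with SCs gave 1.37 (SE 0.49, edgeR adjusted p = 0.235). Kdm5b, of the same subfamily, stood at 140 and 293 CPM in IHCs, above the other 8 at 81.8 to 130 CPM.

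Kdm3a and Kdm3b remove H3K9 methylation. Kdm3a stood at 33.4 and 18.3 CPM in SCs, below the hair cell libraries at 53.3 to 129 CPM, and the comparison of cHCs with SCs gave 1.62 (SE 0.67, edgeR adjusted p = 0.295). Kdm3b stood at 75 and 110 CPM in P7 OHCs, below the other 8 at 114 to 546 CPM, and the comparison of P22 with P7 OHCs gave 2.01 (SE 0.64, edgeR adjusted p = 0.220). Kdm1a (LSD1), which removes methyl groups from H3K4, ranged from 28.6 to 117 CPM with no cell type apart. Kdm2b, a Polycomb recruiter, ranged from 2.73 to 23.7 CPM, Kdm4a from 2.03 to 66.9 CPM and the H3K27 demethylase Kdm6b from 12.2 to 97.0 CPM.

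Kdm5d, on the Y chromosome, is a relative of the X-linked Kdm5c, and Uty is the Y-linked relative of Kdm6a. Kdm5d had 871 and 1 reads in SCs, 0 and 1486 in cHCs, 0 and 4 in P7 OHCs, 1151 and 1 in P22 OHCs, and 1232 and 1293 in IHCs. Uty and Eif2s3y were read in the same 5 libraries, at 29.7 to 66.4 CPM and 50.9 to 125 CPM, and stayed at or below 0.168 CPM elsewhere. Xist, the X inactivation RNA of female cells, stood at 841 to 1946 CPM in the 5 libraries with at most 4 Kdm5d reads and at 0.882 to 2.87 CPM in the other 5.

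The titles of the 4 libraries that carry m or f fit this pattern. By these transcripts the duplicates of SCs, cHCs and P22 OHCs differed in sex, both P7 OHC libraries were female and both IHC libraries were male, so sex and cell type cannot be told apart between P7 OHCs and IHCs. Kdm6a, the X-linked H3K27 demethylase, stood at 176 and 106 CPM in SCs, 215 and 89.8 in cHCs, 136 and 179 in P7 OHCs, 62.2 and 172 in P22 OHCs and 62.8 and 58.5 in IHCs. Kdm5c stood at 96.0 and 67.6 CPM in SCs, 64.8 and 53.5 in cHCs, 69.2 and 103 in P7 OHCs, 1.32 and 96.4 in P22 OHCs and 57.3 and 15.1 in IHCs.

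**Figure D4:**
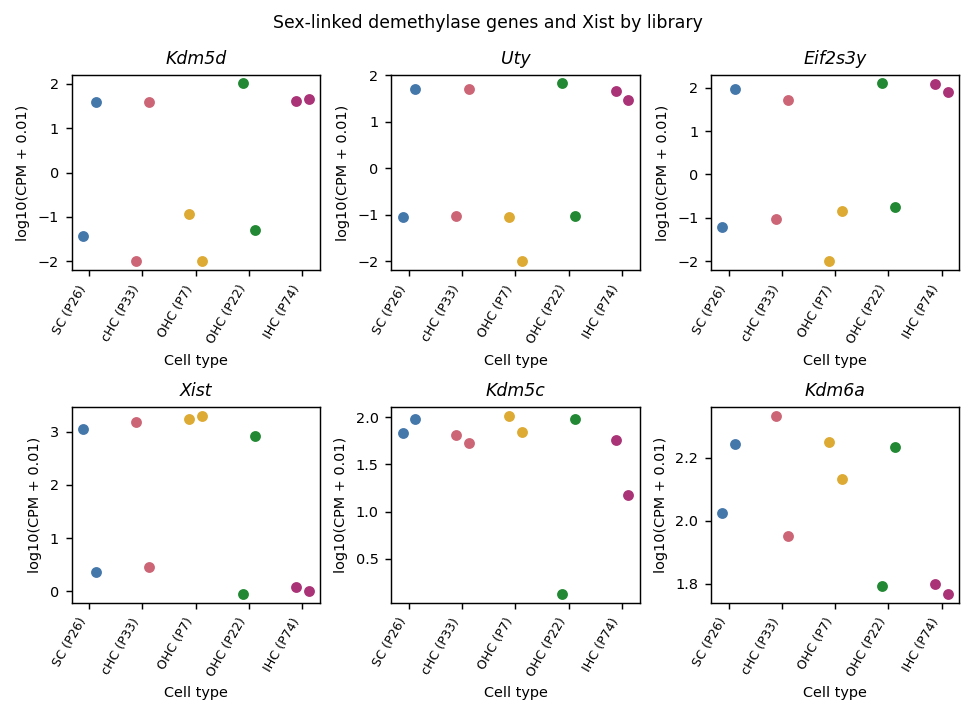
Levels as log10(CPM + 0.01) of the Y-linked Kdm5d, Uty and Eif2s3y and the X-linked Xist, Kdm5c and Kdm6a, with 1 point for each library in the 5 cell types. SCs, cHCs and P22 OHCs each have 1 library with Kdm5d reads and 1 with Xist, both P7 OHC libraries have Xist and both IHC libraries have Kdm5d.

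In cHCs against SCs, the comparison that spans the conversion, 0 of 68 members passed in edgeR beside 1.84% of all tested genes. At an unadjusted p under 0.05 it held 10 members, 14.7% beside 15% of all tested genes, with Tet3, Hdac4, Hdac5, Hdac9, Kdm3a, Kdm4b and Kdm5a higher on average in cHCs and Dnmt3a, Ezh2 and Kat2b lower. DESeq2 called 4 of these (Dnmt3a, Hdac4, Kdm4b and Tet3) and limma-voom 2 (Kdm5a and Tet3). Here and below, calls by these methods stand without the share of all tested genes called, so they do not measure an excess among members. The median log2 difference was -0.05 over members and 0.03 over all tested genes.

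Between cHCs and native hair cells, Dnmt3a was the single member called by edgeR. That is 1 of 68 members in P7 OHCs against cHCs, beside 0.343% of all tested genes (0.219% higher in P7 OHCs), and 1 of 68 in P22 OHCs against cHCs, beside 3.18% (1.16% higher in P22 OHCs). At an unadjusted p under 0.05 the first held 3 members (Dnmt3a, Kdm1b and Suv420h2), 4.41% beside 11.2%, and the second 8, 11.8% beside 19.3%. In IHCs against cHCs 0 of 68 passed beside 0.924%, with 5 members at an unadjusted p under 0.05 (Dnmt3a, Hdac9, Prdm12, Suv420h2 and Tet3), which is 7.35% beside 12.8%. DESeq2 called Dnmt3a and Prdm12 there, and limma-voom Prdm12. The 3 comparisons share the cHC libraries.

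In P22 against P7 OHCs 0 of 68 members passed in edgeR beside 0.551% of all tested genes. At an unadjusted p under 0.05 there were 14 members, 20.6% beside 13.9%, with Dnmt3a and Tet1 lower on average at P22 and 12 higher. DESeq2 called 8 members there (Ezh1, Hdac5, Hdac7, Kat5, Kdm1b, Kdm3b, Sirt1 and Sirt4) and limma-voom 0. The shares of all tested genes called by these methods are not given here. The median log2 difference was 0.60 over members and -0.04 over all tested genes, with the P22 OHC library m21 among the libraries.

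In IHCs against P22 OHCs 0 of 68 passed in edgeR beside 1.46%, with 5 members at an unadjusted p under 0.05, 7.35% beside 15.2%, and DESeq2 called Prdm12 and Prdm15 and limma-voom Prdm12. In P22 OHCs against SCs 2 of 68 passed, Hdac9 and Setd1a, which is 2.94% beside 8.02% of all tested genes. Both were higher in P22 OHCs, beside 4.01% of tested genes called in that direction. At an unadjusted p under 0.05 there were 11 members, 16.2% beside 25.7%.

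**Figure D5:**
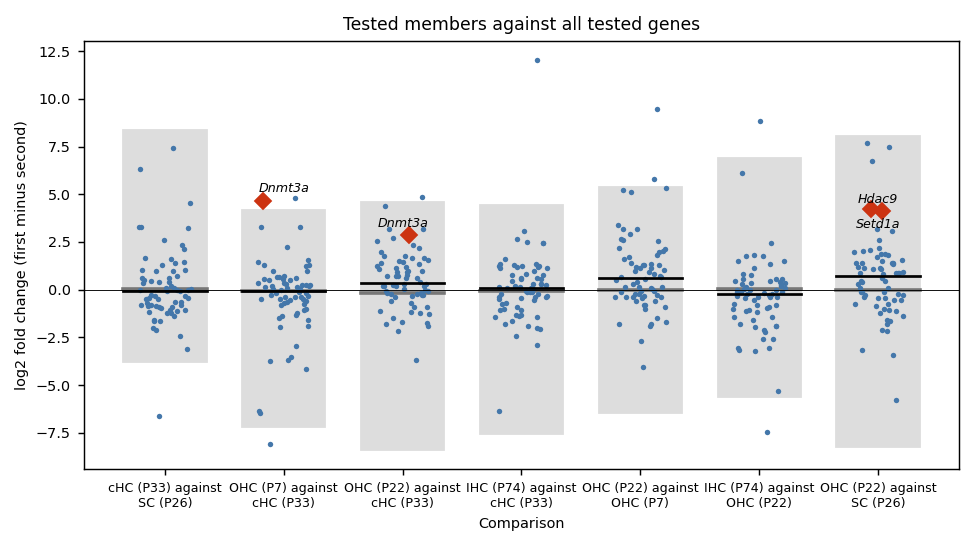
Log2 difference of each tested member (points, first cell type minus second) in the 7 comparisons, with red diamonds for members that passed in edgeR, a black line at the median of members, a grey box from the 5th to the 95th percentile of all tested genes and a grey line at their median. The diamonds are Dnmt3a against cHCs (4.67 and 2.86) and Hdac9 and Setd1a in P22 OHCs against SCs (4.10 and 4.22).

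Both libraries of 1 cell type were above all 8 others for 14 of 68 members, 20.6% beside 27.8% of all tested genes. For SCs these were Ezh2, Hdac11, Kat2b, Prdm4 and Sirt4 (5 members, 7.35% beside 7.97%), for cHCs Hdac4 and Kdm5a (2, 2.94% beside 5.35%), for P7 OHCs Dnmt3a (1, 1.47% beside 3.87%), for P22 OHCs Setd1a and Suv420h1 (2, 2.94% beside 6.17%), and for IHCs Kdm4c, Kdm5b, Prdm12 and Setd8 (4, 5.88% beside 4.48%). Both SC libraries were below the other 8 for 7 members (Hdac4, Hdac9, Kdm3a, Setd1a, Setd4, Setd8 and Tet3), 10.3% beside 6.89%. Both cHC libraries were below the other 8 for Dnmt3a, Sirt7 and Suv420h2 (3, 4.41% beside 1.83%), both P7 OHC libraries for Kat5, Kdm3b and Sirt1 (3, 4.41% beside 1.89%), both P22 OHC libraries for Kdm4a (1, 1.47% beside 6.25%) and both IHC libraries for Prdm15 (1, 1.47% beside 1.89%). Over the 5 cell types that is 15 members, 22.1% beside 18.7%.

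The median absolute log2 ratio between the 2 libraries of a cell type was 1.59 over members in P22 OHCs and 1.20 in SCs, against 0.70 in P7 OHCs, 0.73 in cHCs and 0.84 in IHCs. Over all tested genes it was 1.30, 1.08, 1.14, 1.06 and 0.96 in that order of cell types. On this measure members differed more between duplicates than tested genes at large in P22 OHCs and SCs, and less in the other 3.

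The partners of these enzymes (Polycomb and corepressor subunits, other histone methyltransferases and acetyltransferases, DNA methylation partners and other JmjC demethylases) gave 97 tested genes. The joint edgeR test called 1 of them, 1.03% beside 7.81% of all tested genes. It was Jmjd1c, an H3K9 demethylase relative of Kdm3a. In P22 OHCs against SCs 5 were called, 5.15% beside 8.02% of all tested genes, with Jmjd1c, Mll2, Mll3 and Prmt3 higher and Gadd45b lower. Jmjd1c stood at 197 and 156 CPM in SCs, 429 and 632 in cHCs, 385 and 430 in P7 OHCs, 1503 and 743 in P22 OHCs and 490 and 533 in IHCs. Mll3, an H3K4 methyltransferase, stood at 254 and 348 CPM in the SC libraries and at 1284 and 867 CPM in those of P22 OHCs. Gadd45b, which acts in DNA demethylation, had 6.26 and 9.46 CPM in SCs, 39.6 and 10.5 in cHCs and 0 reads in both P22 OHC libraries. In the other 6 comparisons edgeR called 0 of these 97, beside 0.343% to 3.18% of all tested genes.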

How the data were processed

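Total RNA of hand-picked cells was amplified by single-primer isothermal amplification and sequenced as 100-bp paired ends. Per the labels and the study's methods, the authors trimmed adapters (CASAVA 1.7, Cutadapt), mapped to mm9 with STAR and BWA and counted reads per gene with HTSeq; the deposited values are raw counts, and the counting mode and strand setting are not given in the sources used here. For 4 libraries the file attached to a record was that of another sample: each file was assigned by its constant ratio (CV at most 0.000138%) to that sample's CPM column in the study's supplementary table, which matched the sample name inside the file name, and the attached assignment was an alternative. Entries without a gene were left out (no-feature reads were 26.5% to 50.4% of those listed).

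Genes passing filterByExpr were fitted in one model of 10 libraries with edgeR 4.0.16 (R 4.3.3; TMM, quasi-likelihood F-tests, Benjamini-Hochberg over all tested genes, threshold 0.05), jointly (4 degrees of freedom) and in 7 comparisons. The scripts were tested on simulated counts. The fold changes are edgeR's log2 values. Exon lengths are unions of GENCODE exons on mm9. Alternatives were limma-voom 3.58.1, which the authors used, DESeq2 1.42.0, other filters and size factors, a term for the title form, the compared cell types alone and leaving out each library. The members, gene lists and tests were chosen with earlier results of these data known. Members named with values were all that passed a test, the 10 with the smallest joint p, the highest per kilobase in each family and cell type, and a fixed list of well-known enzymes; others are named for a non-overlap or a cited p. Setdb1 and Setdb2 do not match the symbol rule.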

Additional observations from a re-analysis of the deposited data

How the results depend on the processing

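The edgeR counts of called members moved with the method. Counts under the alternatives stand here without the share of all tested genes called, so they do not measure an excess among members. Members called jointly numbered 11 with DESeq2, 6 without a filter on low counts, 1 (Dnmt3a) with a term for the title form, 0 with files as attached to the records and 1 to 5 leaving out 1 library, against 3. In cHCs against SCs, against 0, the count was 4 with DESeq2, 2 with limma-voom, 2 without a filter, 2 above 35 CPM in at least 2 libraries and 0 to 1 leaving out a library. In P7 OHCs against cHCs, against 1, it was 2 with DESeq2, 2 without a filter, 0 with attached files and 0 to 1 leaving out a library. In P22 OHCs against cHCs, against 1, it was 4 with DESeq2, 0 with limma-voom, attached files, the title-form term or the compared cell types alone, and 0 to 2 leaving out a library. In IHCs against cHCs, against 0, it was 2 with DESeq2, 1 with limma-voom and 0 to 1 leaving out a library. In P22 against P7 OHCs, against 0, it was 8 with DESeq2, 2 without a filter and 0 to 2 leaving out a library. In IHCs against P22 OHCs, against 0, it was 2 with DESeq2, 1 with limma-voom and 0 to 1 leaving out a library. In P22 OHCs against SCs, against 2, it was 10 with DESeq2, 4 without a filter, 6 above 35 CPM, 0 with attached files, 1 with the title-form term, 0 with the compared cell types alone and 0 to 7 leaving out a library, 7 being without the P22 OHC library f22. The causes were not tested. Members with their highest mean in P22 OHCs numbered 14 without TMM scaling and 21 to 24 leaving out a P22 OHC library, against 22, both alternatives added after seeing the data.

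Direction was followed under the alternatives for a chosen set of log2 differences, not for all members in all comparisons. With attached files, those of Dnmt3a turned in P7 OHCs against cHCs (-0.0188), in P22 OHCs against cHCs (-0.96) and in cHCs against SCs (2.59). In cHCs against SCs, those of Tet3 (-0.91), Hdac4 (-0.84), Hdac5 (-0.57) and Kdm5a (-0.84) also turned. No other alternative turned the direction of a difference in this set. No paired analysis was run, because the cell types share no replicate numbers. A block for sex as read from the transcripts was not fitted. The title-form term above is a block of another kind, and deviations of the 3 libraries with the same title form correlated at -0.02 to 0.04.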
